A study of Homo sapiens with 6 samples.

Results

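The proteasome genes were all rows of the count tables whose symbol begins with PSMA, PSMB, PSMC, PSMD or PSME followed by a digit. The pattern found 47 of the 20683 listed genes. Of these, 43 encode proteasome subunits, base assembly chaperones or activators. The other 4 rows are PSMC3IP, whose protein is a cofactor of homologous recombination and no proteasome part, and the antisense RNA genes PSMA3-AS1, PSMB8-AS1 and PSMD6-AS2. The cells were HT-1080, an established human fibrosarcoma line. One group received SLV-8472-01, an inhibitor of the kinase IRAK4, for 24 h at 5 mM, where the unit is copied from the labels and was not verified. The other group received 0.1% DMSO for 24 h. Each group had 3 libraries, described by the series as biological replicates, and all libraries come from this single line. They are called inhibitor 1 to 3 and DMSO 1 to 3.

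The proteasome is the main protease of the cytosol and nucleus for proteins tagged with ubiquitin. Its 20S core is a barrel of alpha rings, which gate the entry, and beta rings, in which PSMB5, PSMB6 and PSMB7 hold the catalytic sites. The 19S particle caps the barrel: its PSMC subunits are ATPases that unfold the substrate, and some of its PSMD subunits bind or remove ubiquitin. Interferons can induce PSMB8, PSMB9 and PSMB10, which replace the constitutive catalytic subunits and make the immunoproteasome, and also PSME1 and PSME2, the alpha and beta subunits of the activator PA28. When the proteasome is impaired, the transcription factor NRF1, encoded by NFE2L1, can raise most constitutive subunit genes together through antioxidant response elements.

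The start-site windows of the immunoproteasome and PA28 genes are shown because interferons act on such genes through short elements near the start, which can be looked for by their letters. The windows run from 250 bases before to 50 after a RefSeq start on GRCh38.p14, 5′ to 3′ on the gene's strand, and 38 of the 43 members had 1 or more (45 windows). PSMA7, PSMB1, PSMB6, PSMB7 and PSMD4 had none. Capitals mark 3 motifs, searched on both strands. The interferon-stimulated response element was read as GAAA, any 2 bases and a further GAAA, the gamma-activated site as TTCNNNGAA and the antioxidant response element as TGACNNNGC. In the windows of PSMB8 (chr6:32843998-32844297, minus strand, the second of its RefSeq starts), PSMB10 (chr16:67936801-67937100, minus strand), PSME1 (chr14:24135944-24136243, plus strand) and PSME2 (chr14:24146561-24146860, minus strand) the first motif had the same 10 letters, GAAAGCGAAA, read on the opposite strand in PSMB8 and PSME1. The PSMB9 window (chr6:32853942-32854241, plus strand) held neither interferon motif and 1 antioxidant response element on the opposite strand. The capitals that begin at base 186 of the PSMB8 window are a gamma-activated site, and those at base 165 of the PSME1 window and base 76 of the PSME2 window are antioxidant response elements. PSMD12 (chr17:67366528-67366827, minus strand), a lid subunit of the 19S particle, is shown with its antioxidant response element as an example of a constitutive gene. The other PSMB8 window held none of the 3 motifs.
PSMB8: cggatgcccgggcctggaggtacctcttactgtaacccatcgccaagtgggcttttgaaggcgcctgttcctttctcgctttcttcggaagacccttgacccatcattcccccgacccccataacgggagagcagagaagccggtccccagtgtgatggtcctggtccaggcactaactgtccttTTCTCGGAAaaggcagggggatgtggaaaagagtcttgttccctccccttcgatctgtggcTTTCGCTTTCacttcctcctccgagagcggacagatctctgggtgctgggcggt
PSMB10: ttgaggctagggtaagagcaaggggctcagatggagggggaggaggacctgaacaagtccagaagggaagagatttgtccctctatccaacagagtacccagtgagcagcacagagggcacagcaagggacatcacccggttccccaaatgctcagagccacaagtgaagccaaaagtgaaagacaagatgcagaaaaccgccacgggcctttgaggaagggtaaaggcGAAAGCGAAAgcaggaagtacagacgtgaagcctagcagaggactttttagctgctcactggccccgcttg
PSME1: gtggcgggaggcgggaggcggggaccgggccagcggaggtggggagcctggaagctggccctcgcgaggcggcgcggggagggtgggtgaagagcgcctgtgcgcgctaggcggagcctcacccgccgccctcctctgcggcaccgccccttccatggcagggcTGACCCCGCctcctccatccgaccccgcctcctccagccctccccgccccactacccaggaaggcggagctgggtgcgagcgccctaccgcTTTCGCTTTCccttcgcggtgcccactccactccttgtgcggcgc
PSME2: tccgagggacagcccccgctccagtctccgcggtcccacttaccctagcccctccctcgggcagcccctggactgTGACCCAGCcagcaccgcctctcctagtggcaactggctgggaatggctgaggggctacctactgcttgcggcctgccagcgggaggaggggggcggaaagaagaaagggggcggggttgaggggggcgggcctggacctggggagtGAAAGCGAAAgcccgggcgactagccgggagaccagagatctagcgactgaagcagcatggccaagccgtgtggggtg
PSMB9: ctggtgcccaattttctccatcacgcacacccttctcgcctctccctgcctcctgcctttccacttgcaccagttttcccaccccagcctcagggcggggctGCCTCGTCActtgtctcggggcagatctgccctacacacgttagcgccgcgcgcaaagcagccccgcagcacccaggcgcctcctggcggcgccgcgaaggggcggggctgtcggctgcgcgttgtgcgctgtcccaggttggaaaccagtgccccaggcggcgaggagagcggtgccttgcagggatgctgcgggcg
PSMD12: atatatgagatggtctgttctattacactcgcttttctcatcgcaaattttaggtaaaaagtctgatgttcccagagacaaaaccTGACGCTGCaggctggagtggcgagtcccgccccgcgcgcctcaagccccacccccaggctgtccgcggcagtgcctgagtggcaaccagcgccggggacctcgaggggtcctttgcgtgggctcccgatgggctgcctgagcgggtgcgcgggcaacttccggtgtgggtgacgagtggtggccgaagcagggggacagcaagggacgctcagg

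The interferon-stimulated response element occurred in 6 of the 45 member windows (13.3%), of PSMB8, PSMB10, PSME1, PSME2, PSMA4 and PSMB4, against 3.57% of all 35116 RefSeq windows. The gamma-activated site occurred in 8 (17.8%), against 7.66% of all windows, and the antioxidant response element in 13 (28.9%), against 13.3%. The CCAAT box, read as CCAAT, occurred in 19 (42.2%), against 34.6%. In the 6 windows printed no motif overlapped another. These are matches of letters, given as a description.

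Library totals ranged from 9162281 to 13184553 counts. Across all tested genes DMSO 3 stood apart from the other DMSO libraries, with a median absolute log2 difference of 0.331 from DMSO 1 and 0.265 from DMSO 2, against 0.171 between DMSO 1 and DMSO 2 and 0.137 to 0.148 among the inhibitor libraries. All 10 mesenchymal marker genes had counts, although THY1 had 1 count in total. They summed to 11700 to 12100 CPM (counts scaled to a common library size) in the inhibitor libraries and 11100 to 13300 in the DMSO libraries. The marker sums in this paragraph were scaled by library totals only. The CPM of tested genes given below were also scaled with TMM, the trimmed mean of M values. The leukocyte markers PTPRC, CD3E and CD79A had no count in any library, and the 6 leukocyte markers summed to at most 1.37 CPM in the inhibitor libraries and 2.28 in the DMSO libraries. The 5 epithelial markers, with CDH1 at 0, summed to 1.6 to 2.36 CPM in the inhibitor libraries and 0.873 to 1.37 in the DMSO libraries. The 4 endothelial markers, with VWF and CLDN5 at 0, summed to 0.816 to 2.27 CPM in the inhibitor libraries and 0.759 to 1.42 in the DMSO libraries.

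The study set inhibitor against DMSO to find genes regulated by IRAK4 inhibition, and here the question was put to the proteasome. No proteasome gene passed the test with all 6 libraries. Of the 43 members 41 had enough counts to be tested, and by edgeR's quasi-likelihood test 0 were higher and 0 lower at an adjusted p under 0.05, where 3.87% of all 11216 tested genes were called. DESeq2, which called 5.3% of all genes, and limma-voom, which called 3.96%, called 0 members as well. With library quality weights limma-voom called 5 members higher (12.2%, against 12.4% of all tested genes) and 2 lower (4.88%, against 10.9%). Without DMSO 3 edgeR's test called 6 members higher (14.6%, against 10.8% of all tested genes) and 2 lower (4.88%, against 11.1%). At an unadjusted p under 0.05 there were 2 members, PSMB9 higher and PSMD4 lower, where 19.5% of all tested genes had such a p. The lowest adjusted p of any member was 0.164. The members' log2 fold changes (inhibitor over DMSO) lay between -0.463 and 0.49 with a median of 0.0552, against a median of -0.00438 for all tested genes. Their median absolute log2 fold change was 0.0999, against 0.182 for all tested genes. The share of members whose 3 inhibitor and 3 DMSO values did not overlap was 19.5% (8 of 41, 5 with the inhibitor libraries higher and 3 lower), against 25.5% of all tested genes.

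The intervals of most members were narrow. A 95% interval of the log2 fold change, taken for each gene alone, stayed within a 1.5-fold change in either direction for 38 of 41 members (92.7%), against 55.1% of all tested genes. The exceptions were PSMB9, PSMD12 and PSMD4. The widest bound was a 1.86-fold change, for PSMB9 upward and PSMD4 downward. The median SE of the members' log2 fold changes was 0.131, against 0.159 for all tested genes. All 41 members averaged 50 or more counts, as 9246 of the 11216 tested genes did, and intervals narrow as counts rise. The members were not matched to genes of like counts. These comparisons, and that of the median absolute log2 fold change, therefore do not set the proteasome apart from other well-counted genes. In bulk libraries fewer cells of a type and less RNA per cell cannot be told apart, and all values here are relative to the library.

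**Figure D1:**
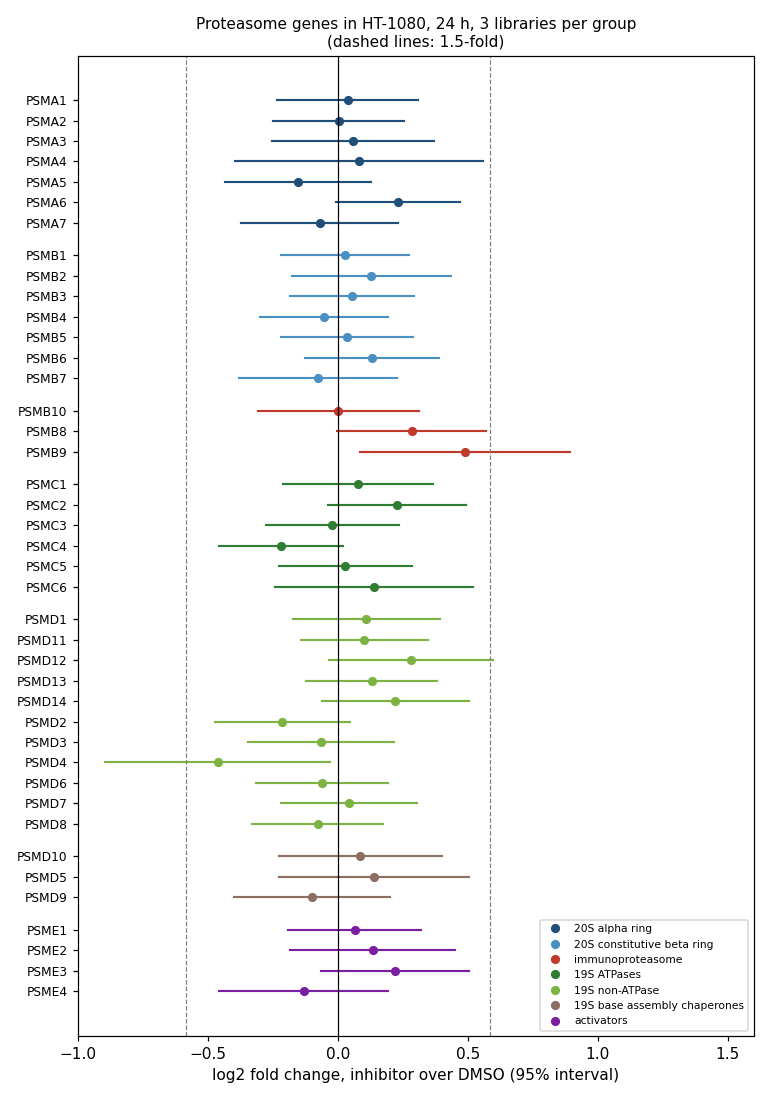
Log2 fold change of each tested proteasome gene, inhibitor over DMSO (x axis), with its 95% interval as a line, grouped and coloured by place in the complex, 3 libraries per group. All points lie between -0.463 and 0.49, and the intervals of PSMB9, PSMD12 and PSMD4 cross the dashed lines at a 1.5-fold change.

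Taken as a sum, the 41 tested members had similar TMM-scaled CPM in every library. They summed to 8107, 8236 and 8363 CPM in inhibitor 1 to 3, against 8071, 8110 and 8091 CPM in DMSO 1 to 3. The ranges overlap, with inhibitor 1 just under DMSO 2, and the ratio of the means was 1.02 ± 0.016 (SD, n = 3 each). With library totals only the ratio was higher by more than 1 SD, so the likeness of the sums depends on the scaling. PSMB2 and PSMB4 gave the most CPM to these sums, in which transcript abundance and how well an amplicon is read cannot be told apart.

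No member of the alpha ring of the 20S core passed the test with all 6 libraries. PSMA6, the alpha 1 subunit, had the highest fold change of the ring. It had 349.8, 334.9 and 333.8 CPM in inhibitor 1 to 3, against 284.7, 272.0 and 310.4 CPM in DMSO 1 to 3. All inhibitor values lie above all DMSO values, and the log2 fold change of 0.23 (SE 0.111, 95% interval -0.01 to 0.47) gave an adjusted p of 0.268 in edgeR's test. PSMA5, the alpha 5 subunit, had the lowest fold change, with 113.1, 114.5 and 128.8 CPM in the inhibitor libraries and 144.0, 140.0 and 112.1 CPM in the DMSO libraries. Inhibitor and DMSO values overlap through DMSO 3 (log2 fold change -0.15, SE 0.131, adjusted p = 0.57). PSMA4, the alpha 3 subunit, had the most uneven controls of the ring, at 150.9, 169.8 and 152.9 CPM with inhibitor and 91.4, 141.0 and 216.0 CPM with DMSO. The DMSO values lie on either side of all inhibitor values, and the log2 fold change was 0.08 (SE 0.222, adjusted p = 0.884). Without DMSO 3, PSMA4 (0.43, SE 0.123, edgeR adjusted p = 0.0117) and PSMA6 (0.27, SE 0.0966, adjusted p = 0.0408) were called higher. PSMA1, PSMA2, PSMA3 and PSMA7 lay between -0.07 and 0.06. The ring's 7 genes summed to 1253 ± 22 CPM with inhibitor and 1224 ± 33.6 CPM with DMSO (SD, n = 3 each).

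The constitutive beta ring was the part of the particle with the smallest spread of fold changes, all 7 between -0.0755 and 0.133 with no group separated. PSMB2, the beta 4 subunit, gave the highest mean CPM of all members, 1006, 979 and 1077 CPM in inhibitor 1 to 3 and 818, 804 and 1180 CPM in DMSO 1 to 3. Its inhibitor values sit between those of DMSO 3 and those of the other DMSO libraries (log2 fold change 0.13, SE 0.143, edgeR adjusted p = 0.674), and without DMSO 3 it was called higher (0.32, SE 0.0936, adjusted p = 0.0139). None of the 3 catalytic subunits passed the test. PSMB5 had 271.8, 299.2 and 249.6 CPM with inhibitor, against 289.9, 256.8 and 254.4 CPM with DMSO, a log2 fold change of 0.03 (95% interval -0.22 to 0.29, edgeR adjusted p = 0.91). PSMB6 had 197.0, 206.5 and 213.6 CPM with inhibitor, against 207.7, 187.0 and 167.8 CPM with DMSO, a log2 fold change of 0.13 (95% interval -0.12 to 0.39, adjusted p = 0.598) and the highest of the ring. PSMB7 had 298.5, 286.0 and 372.0 CPM with inhibitor, against 355.5, 372.9 and 279.0 CPM with DMSO, a log2 fold change of -0.08 (95% interval -0.38 to 0.23, adjusted p = 0.821) and the lowest of the ring. In all 3 genes the groups overlap. The ring summed to 3103 ± 77.5 CPM with inhibitor and 3021 ± 75.4 CPM with DMSO (SD, n = 3 each).

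The tissue variants of the core gave no counts. PSMA8, the alpha 4 variant of testis, and PSMB11, the beta 5 variant of thymic epithelium, had 0 counts in all 6 libraries. A count of 0 allows up to 3 counts, or 0.252 to 0.317 CPM in an inhibitor library and 0.228 to 0.327 in a DMSO library, for counting error alone.

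The 3 immunoproteasome genes were all measured, and none passed the test with all 6 libraries. Together they summed to 68.9, 70.0 and 66.7 CPM in inhibitor 1 to 3, against 64.0, 58.6 and 57.3 CPM in DMSO 1 to 3, groups that do not overlap, with a ratio of the means of 1.14 ± 0.073 (SD, n = 3 each). PSMB9, the beta 1i subunit that takes the place of PSMB6, had 16.2, 18.2 and 11.1 CPM in inhibitor 1 to 3, against 9.93, 10.7 and 12.05 CPM in DMSO 1 to 3. Inhibitor 1 and 2 lie above all DMSO libraries and inhibitor 3 does not. The log2 fold change was 0.49, the highest of all members (SE 0.188, 95% interval 0.09 to 0.89, edgeR adjusted p = 0.164). It was 0.44, 0.34 and 0.66 without inhibitor 1, 2 and 3, and passed the test without DMSO 3 (0.55, SE 0.173, adjusted p = 0.0207).

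PSMB8, the beta 5i subunit that takes the place of PSMB5, had 22.7, 22.1 and 24.5 CPM with inhibitor, against 18.5, 18.6 and 19.8 CPM with DMSO. All inhibitor values lie above all DMSO values, and inhibitor 3, the lowest of the inhibitor libraries for PSMB9, is the highest here. The log2 fold change was 0.28 (SE 0.134, 95% interval -0.003 to 0.57, edgeR adjusted p = 0.262), and it did not pass in any alternative run. PSMB10, the beta 2i subunit that takes the place of PSMB7, had 30.0, 29.7 and 31.0 CPM with inhibitor, against 35.5, 29.3 and 25.4 CPM with DMSO. The inhibitor values fall inside the DMSO range, and the log2 fold change was 0.00 (95% interval -0.31 to 0.31, adjusted p = 0.997).

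In the same libraries the interferon-stimulated gene IFI6, chosen after its values were seen, had 472, 386 and 119 CPM in inhibitor 1 to 3 and 28.2, 23.3 and 27.9 CPM in DMSO 1 to 3, with a log2 fold change of 3.62 (edgeR adjusted p = 7.79e-05, SE 0.368). Among the inhibitor libraries, inhibitor 3 was the lowest for IFI6, PSMB9 and PSME2 and the highest for PSMB8, PSMB10 and PSME1. Whether the differences are linked was not tested. The defining leukocyte markers PTPRC, CD3E and CD79A were at 0 in every library.

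Set against the constitutive subunits, PSMB9 stood at 8.21, 8.80 and 5.21% of PSMB6 in inhibitor 1 to 3, against 4.78, 5.70 and 7.18% in DMSO 1 to 3. PSMB8 stood at 8.36, 7.39 and 9.83% of PSMB5 with inhibitor and 6.39, 7.26 and 7.79% with DMSO. PSMB10 stood at 10.0, 10.4 and 8.33% of PSMB7 with inhibitor and 9.99, 7.86 and 9.12% with DMSO. In each of these pairs the groups overlap. PSME2 stood at 68.0, 64.5 and 50.4% of PSME1 with inhibitor and 59.4, 64.9 and 48.9% with DMSO, which overlap too. The levels of these percentages depend on how well each amplicon is read, and only their comparison between libraries can be interpreted.

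**Figure D2:**
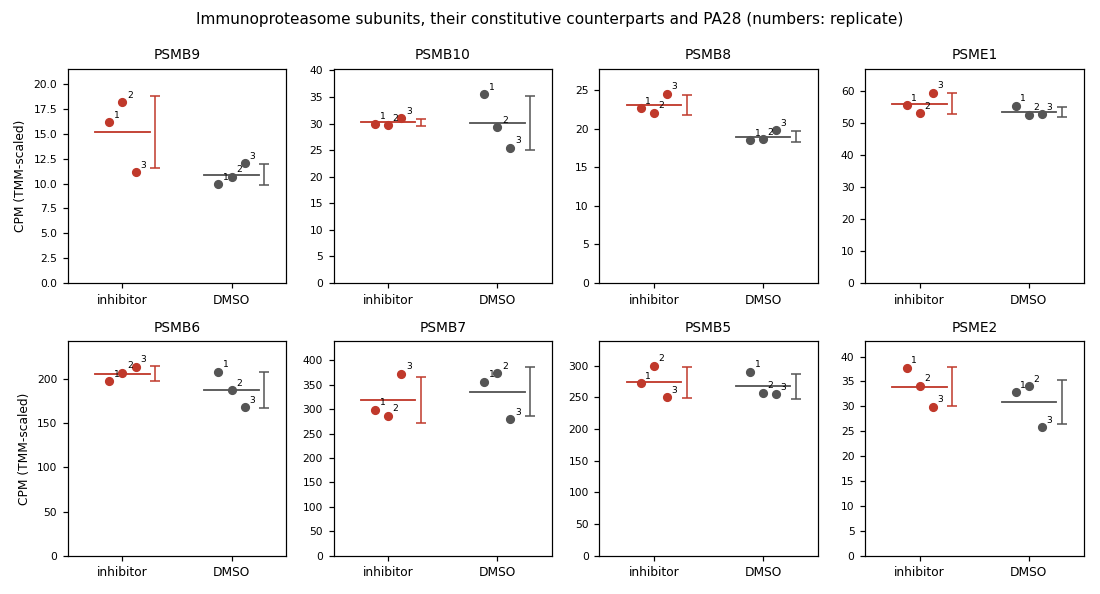
CPM (y axis, TMM-scaled, from 0) of the immunoproteasome subunits PSMB9, PSMB10 and PSMB8, of the subunits they replace below them, and of PSME1 and PSME2, in inhibitor and DMSO libraries, with the replicate number beside each point, the mean as a line and the SD as a bar at its side. The groups are separate in PSMB8 and overlap in the other panels.

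The activators showed no called difference either. PSME1 had 55.5, 52.9 and 59.4 CPM with inhibitor, against 55.3, 52.4 and 52.7 CPM with DMSO, a log2 fold change of 0.06 (95% interval -0.19 to 0.32, edgeR adjusted p = 0.821). PSME2 had 37.7, 34.1 and 30.0 CPM with inhibitor, against 32.8, 34.0 and 25.8 CPM with DMSO, a log2 fold change of 0.13 (95% interval -0.18 to 0.45, adjusted p = 0.672). For both PA28 subunits the groups overlap. PSME3, the nuclear PA28 gamma, had 203.3, 187.2 and 200.4 CPM with inhibitor, against 158.1, 201.4 and 147.9 CPM with DMSO (log2 fold change 0.22, the highest of the activators, adjusted p = 0.389). PSME4, which encodes the separate activator PA200, had 127.7, 116.4 and 130.1 CPM with inhibitor, against 107.9, 134.3 and 168.2 CPM with DMSO (log2 fold change -0.13, the lowest, adjusted p = 0.687). The groups overlap in both, and without DMSO 3 the log2 fold changes were 0.12 for PSME3 and 0.03 for PSME4 (edgeR adjusted p = 0.461 and 0.882). The 4 activators summed to 412 ± 18.2 CPM with inhibitor and 390.3 ± 34.1 CPM with DMSO (SD, n = 3 each).

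Among the 6 ATPases of the 19S base, PSMC2 had the highest and PSMC4 the lowest fold change, and neither passed with all 6 libraries. PSMC4 had 267.7, 272.7 and 273.5 CPM with inhibitor, against 333.2, 323.4 and 290.8 CPM with DMSO. Each inhibitor value lies below each DMSO value, with a log2 fold change of -0.22 (edgeR adjusted p = 0.297, SE 0.111). PSMC2 had 60.9, 58.8 and 54.2 CPM with inhibitor, against 49.5, 52.7 and 46.2 CPM with DMSO, all higher, with a log2 fold change of 0.23 (SE 0.123, adjusted p = 0.326). PSMC6 had 235.7, 244.1 and 266.8 CPM with inhibitor and 169.0, 203.4 and 306.9 CPM with DMSO, so that the DMSO values enclose the inhibitor values (log2 fold change 0.14, SE 0.177, adjusted p = 0.728). Without DMSO 3, PSMC6 was called higher (0.40, SE 0.104, edgeR adjusted p = 0.00529) and PSMC4 lower (-0.29, SE 0.0951, adjusted p = 0.0267). PSMC1, PSMC3 and PSMC5 lay between -0.02 and 0.08. The ATPases summed to 1220 ± 50.4 CPM with inhibitor and 1224 ± 27.4 CPM with DMSO (SD, n = 3 each).

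The 11 non-ATPase subunits of the 19S particle had the widest range of fold changes within 1 part, from -0.463 to 0.28, and the lowest value rests on few counts. PSMD4, the ubiquitin receptor Rpn10, gave the lowest mean CPM of all tested members, with 4.25, 6.42 and 4.78 CPM in inhibitor 1 to 3 and 7.82, 6.77 and 6.64 CPM in DMSO 1 to 3. The groups do not overlap, and the counts behind them are 170 with inhibitor and 248 with DMSO, summed over libraries. Its log2 fold change of -0.46 (SE 0.202, 95% interval -0.90 to -0.03) gave an adjusted p of 0.225 in edgeR's test. PSMD12, a lid subunit, had the highest fold change of these genes. It had 84.1, 90.03 and 79.7 CPM with inhibitor and 57.3, 67.1 and 85.1 CPM with DMSO, where DMSO 3 lies within the inhibitor range (log2 fold change 0.28, SE 0.147, adjusted p = 0.312). PSMD2, a scaffold of the base, had 416.7, 379.9 and 405.4 CPM with inhibitor, against 426.3, 534.8 and 432.2 CPM with DMSO. The inhibitor values are all lower, with a gap smaller than the spread of the DMSO values (log2 fold change -0.21, SE 0.121, adjusted p = 0.353). Without DMSO 3, PSMD12 was called higher (0.43, SE 0.109, edgeR adjusted p = 0.00471) and PSMD2 lower (-0.28, SE 0.101, adjusted p = 0.046).

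PSMD14, the deubiquitinase Rpn11 of the lid, had 248.8, 252.3 and 266.6 CPM with inhibitor and 180.9, 251.5 and 226.3 CPM with DMSO (log2 fold change 0.22, SE 0.132, edgeR adjusted p = 0.38). Its groups overlap only through inhibitor 1 and DMSO 2. PSMD13, a lid subunit, had separate groups, at 93.7, 92.8 and 91.6 CPM with inhibitor and 89.7, 85.7 and 78.6 CPM with DMSO (log2 fold change 0.13, adjusted p = 0.597). PSMD1, PSMD3, PSMD6, PSMD7, PSMD8 and PSMD11 lay between -0.08 and 0.11. The 11 genes summed to 2073 ± 26.7 CPM with inhibitor and 2064 ± 93.6 CPM with DMSO (SD, n = 3 each).

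PSMD5, PSMD9 and PSMD10 carry subunit names but encode chaperones that help the base assemble and then leave it. PSMD5 had the highest log2 fold change of the 3, 0.14, and PSMD9 the lowest, -0.10, with edgeR adjusted p of 0.708 and 0.753. PSMD5 was read at 7.11, 6.86 and 7.80 CPM with inhibitor and 6.73, 6.55 and 6.42 CPM with DMSO, groups that do not overlap. PSMD9 had 40.7, 45.0 and 47.1 CPM with inhibitor and 55.1, 46.3 and 40.6 CPM with DMSO, which overlap.

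The rows that match the symbol pattern without encoding a proteasome part did not pass edgeR's test with all 6 libraries either. PSMC3IP had 11.1, 9.45 and 10.6 CPM with inhibitor and 13.9, 13.4 and 9.12 CPM with DMSO (log2 fold change -0.24, edgeR adjusted p = 0.517). PSMA3-AS1, which lies antisense beside PSMA3, had 14.8, 13.6 and 18.0 CPM with inhibitor and 12.7, 10.96 and 14.5 CPM with DMSO (log2 fold change 0.28, adjusted p = 0.374). It was called higher by limma-voom with library quality weights (0.40, SE 0.14, adjusted p = 0.0347), which called 12.4% of all tested genes higher. The sources used here do not say whether counting used strand, so reads that PSMA3, PSMB8 or PSMD6 shares with its antisense partner cannot be told apart. PSMB8-AS1 had 8 counts with inhibitor and 7 with DMSO, and PSMD6-AS2 had 12 with inhibitor and 2 with DMSO, too few to be tested.

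The members, like all tested genes, were more uneven among DMSO than among inhibitor libraries, with DMSO 3 most often at the end of the range. Over all tested genes the median absolute log2 difference was 0.171 to 0.331 between DMSO libraries and 0.137 to 0.148 between inhibitor libraries. The median SD of log2 CPM over the 41 members was 0.0861 among inhibitor libraries and 0.154 among DMSO libraries. DMSO 3 was the highest or lowest of the 3 DMSO values in 34 members, the highest in 11 and the lowest in 23. Any library out of 3 lies at an end of the range in most genes, and the share over all tested genes is not given here. Relative to the mean of DMSO 1 and 2, PSMA4 was 0.93 higher in DMSO 3 on the log2 scale, PSMC6 0.73, PSMB2 0.54, PSME4 0.48 and PSMD12 0.46, while PSMA7 was at -0.41 and PSMB7 at -0.38. Across the 41 members this deviation had a Pearson r of -0.548 and a Spearman rho of -0.494 with the GC content of the annotated transcripts, against -0.488 and -0.493 across 9189 genes that averaged 50 or more counts. These correlations are descriptions across genes, which share the libraries and are not independent.

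**Figure D3:**
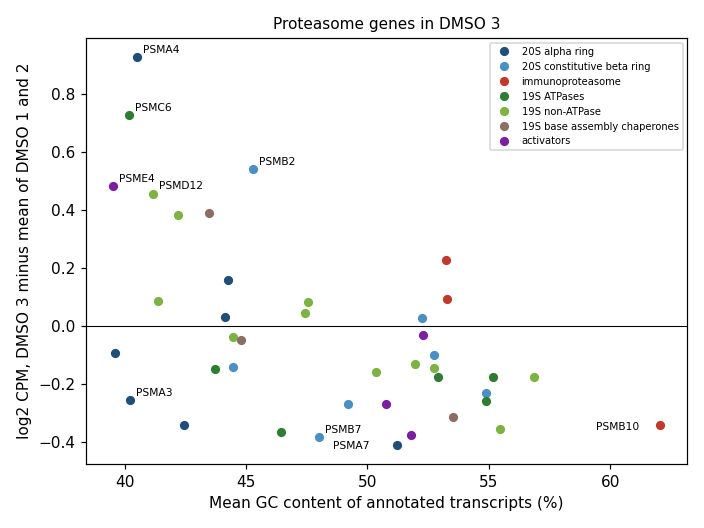
Deviation of DMSO 3 from the mean of DMSO 1 and 2 (y axis, log2 CPM) against the mean GC content of the gene's annotated transcripts (x axis, percent) for the 41 tested proteasome genes, coloured by place in the complex. PSMA4, PSMC6, PSMB2, PSME4 and PSMD12 lie highest, with 39.5 to 45.3% GC, while PSMA3, with 40.2% GC, lies at -0.26.

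Without DMSO 3 the 6 members called higher were PSMA4, PSMA6, PSMB2, PSMB9, PSMC6 and PSMD12, and the 2 called lower were PSMC4 and PSMD2. These genes are spread over the alpha ring, the beta ring, the immunoproteasome and the 19S particle, and the median log2 fold change of the 41 members in that comparison was 0.0276. Limma-voom with library quality weights, which kept all 6 libraries, called the same genes in the same directions except PSMA4 (limma-voom adjusted p = 0.156). With each library's GC trend removed and DMSO 3 kept, edgeR's test called no member, as was so with all 6 libraries before that removal. The log2 fold changes were then 0.07 for PSMA4, 0.11 for PSMC6, 0.10 for PSMB2 and 0.24 for PSMD12 (edgeR adjusted p = 0.865, 0.682, 0.672 and 0.225). Before removal they were 0.08, 0.14, 0.13 and 0.28. The SE of the same genes were 0.171, 0.134, 0.123 and 0.114 after removal, against 0.222, 0.177, 0.143 and 0.147 before. The part of GC content in these differences was not tested.

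**Figure D4:**
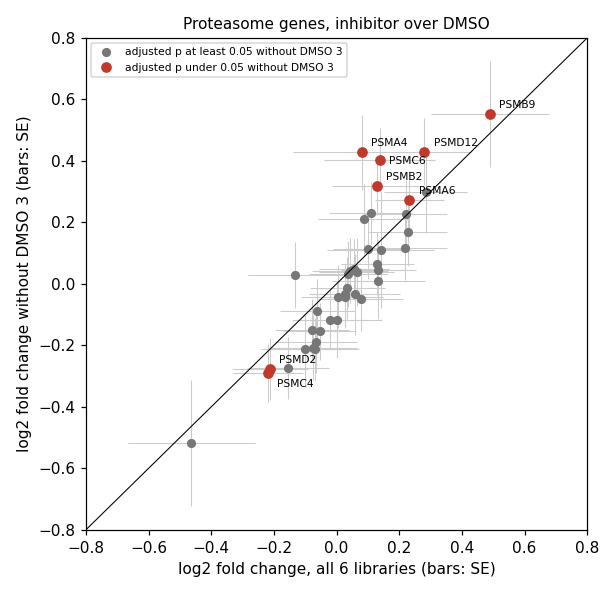
Log2 fold change of the 41 tested proteasome genes, inhibitor over DMSO, with all 6 libraries (x axis) and without DMSO 3 (y axis), with SE bars and the line of equal values. PSMA4, PSMC6, PSMD12 and PSMB2 lie above the line, and the 8 genes called without DMSO 3 are named.

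Genes that work with the proteasome were read from 5 lists, and none of their 49 tested genes passed edgeR's test, 4 having an unadjusted p under 0.05 (2 higher, 2 lower). The 19.5% of all tested genes at such a p is a higher share. Without DMSO 3 there were 6 called higher and 5 lower, near the 10.8% and 11.1% of all tested genes. Limma-voom called 0 of them, and DESeq2 called 1 higher and 1 lower, where it called 5.3% of all tested genes. The assembly factors of the core (5 genes, median log2 fold change 0.109) include POMP, which chaperones beta ring assembly, with 9.88, 9.81 and 8.11 CPM with inhibitor and 9.07, 10.5 and 9.12 CPM with DMSO (log2 fold change -0.04, adjusted p = 0.917). The partners of the regulatory particle (10 genes, median 0.0754) include PSMF1, an inhibitor of the core, with 166.3, 182.2 and 162.5 CPM with inhibitor and 177.9, 149.7 and 144.0 CPM with DMSO (log2 fold change 0.12, adjusted p = 0.662). Both pairs of groups overlap. The ubiquitin genes and shuttle factors (14 genes) had a median of 0.00904.

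The list on transcription of proteasome genes (10 of 12 tested, median -0.0496) holds NFE2L1, with 332.4, 368.8 and 439.8 CPM with inhibitor and 440.1, 392.5 and 303.2 CPM with DMSO (log2 fold change 0.01, 95% interval -0.31 to 0.32, edgeR adjusted p = 0.988). NFE2L2, the NRF2 gene, had 162.7, 166.8 and 180.6 CPM with inhibitor and 177.0, 170.9 and 297.0 CPM with DMSO, where DMSO 3 stands apart (log2 fold change -0.34, SE 0.181, adjusted p = 0.322, and -0.05 without DMSO 3). NFYC, a subunit of the factor NF-Y that binds CCAAT boxes, was chosen after its values were seen. It had 79.4, 79.0 and 88.4 CPM with inhibitor and 122.3, 107.8 and 106.2 CPM with DMSO, separate groups with a log2 fold change of -0.45 (SE 0.122, adjusted p = 0.0581), which was called by DESeq2 (-0.46, adjusted p = 0.0198) and by edgeR without DMSO 3 (-0.50, adjusted p = 0.000771).

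In the list of interferon-linked antigen processing (10 genes, median -0.00109), TAP1, the peptide transporter gene, had 39.1, 35.5 and 32.5 CPM with inhibitor and 28.3, 32.8 and 32.3 CPM with DMSO (log2 fold change 0.20, SE 0.134, edgeR adjusted p = 0.445). Its groups overlap.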

How the data were processed

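The deposited values are whole-number counts for each gene symbol, 1 file per library, and are not normalized, as the values show. Per the labels' protocols, libraries came from an amplicon panel (Ion AmpliSeq Transcriptome) on an Ion Torrent Proton, so each gene is read through a PCR product and levels of different genes cannot be compared. Per the submitters' processing notes HTSeq, DESeq2 1.20.0 and hg19 were used, without their roles. No source used here names the aligner. Limits for 0 counts cover counting error only, since no molecular identifiers are named. Nothing in the labels says that the dishes were independent beyond the term biological replicates, so p-values measure the spread between these libraries.

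Genes were kept by filterByExpr (minimum count 10, minimum total 15), scaled by TMM and tested with edgeR 4.0.16 in R 4.3.3 by the quasi-likelihood test on the group, with Benjamini-Hochberg adjustment over all 11216 tested genes at 0.05. The SE is the absolute log2 fold change over the square root of F, and 95% intervals use it with the test's degrees of freedom, without adjustment for the number of genes. Alternatives were DESeq2 1.42.0, limma-voom (limma 3.58.1) without and with library quality weights, other scalings and filters, a replicate block, removal of each library's GC trend (span 0.5, GENCODE v29 transcripts matched by symbol for 98.9% of tested genes) and leaving out each library. The fits were tested on simulated counts. Members, classes and lists were chosen with earlier results of these data known. Values are given for the immunoproteasome subunits, the subunits they replace, the activators, the highest and lowest fold change in each class, the highest and lowest mean CPM, the rows that are no proteasome genes, any called list gene, and NFE2L1, NFE2L2, POMP, TAP1 and PSMF1. PSMA4, PSMC6, PSMD2, PSMD13, PSMD14 and other genes named besides these were chosen after their values were seen. Some genes of the lists are not reported here.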

Additional observations from a re-analysis of the deposited data

How the results depend on the processing

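The count of 0 called members held with DESeq2's size factors, library totals only, no filter, a mean count of at least 50, DESeq2, limma-voom, a replicate block and the GC trend removed. With library quality weights in limma-voom 5 members were higher and 2 lower. Leaving out 1 library gave 0 to 6 higher and 0 to 2 lower members, with calls only without DMSO 3. The number of called genes was 434, and 831 with no filter, 2606 with quality weights, 720 after removing the GC trend and 99 to 2496 with 1 library left out (125, 99 and 150 without inhibitor 1, 2 and 3, 426, 185 and 2496 without DMSO 1, 2 and 3). In the companion lists 1 gene was higher with library totals only, and 1 higher and 1 lower with no filter, with DESeq2 and with the GC trend removed, 4 and 4 with quality weights, and 0 to 6 higher and 0 to 5 lower with 1 library left out, again with the highest counts without DMSO 3. Same-numbered libraries did not deviate together (correlations of -0.0414, -0.0378 and -0.0882), and libraries of different number gave -0.0844 to 0.115. These deviations were taken from the mean of each group of 3, with DMSO 3 apart. They therefore cannot show whether the numbers pair the libraries. The replicate block called 327 genes and no member. Of 750 values of 50 genes under the alternatives, 27 newly passed, 56 without a call changed sign and 0 called values reversed. Library totals only moved the median log2 fold change of all genes to 0.0559 and the members' to 0.116. The summed CPM ratio then became 1.07 for the alpha ring, 1.07 for the beta ring and 1.06 for all members, and the other 53 of 56 ratios stayed within 1 SD. The cause was not tested. PSMD4 had 46 to 100 counts per library and an SE of 0.202, PSMD5 57 to 87 and 0.171, and PSMB9 107 to 204 and 0.188.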
